A study of Mus musculus with 6 samples.

Results

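The kinases of the DLK/JNK injury pathway and the transcription factors of the integrated stress response were examined in mouse retinal ganglion cells, the output neurons of the retina, which send their axons to the brain through the optic nerve. The group was a fixed list of 10 genes: Map3k12, Map3k13, Mapk8, Mapk9, Mapk10, Mapk8ip3, Ddit3, Atf4, Atf5 and Trib3. It was chosen by gene name, and all 10 were among the 22413 genes of the deposited count table. Bulk RNA sequencing compared ganglion cells of adult mice in 2 groups of 3 samples. The first carried both the floxed Tgfbr1 alleles and Cre at the Vglut2 locus (Tgfbr1flx/flx;Vglut2Cre/+), and its samples are called the knockout libraries. The second carried the same floxed alleles without Cre (Tgfbr1flx/flx;Vglut2+/+), and its samples are the controls, so both groups share the floxed background. Tgfbr1 encodes a TGF-beta type I receptor, and Vglut2 is the vesicular glutamate transporter that ganglion cells use, encoded by Slc17a6. A Cre under that gene also acts in other cells that express it. The labels do not say whether a sample was 1 animal or a pool, so the p-values below reflect only how much these samples differ among themselves, and that spread may be technical. Because the samples are bulk, fewer cells of a type and less RNA per cell cannot be told apart.

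As background, dual leucine zipper kinase (DLK, Map3k12) and its close relative LZK (Map3k13) sit at the top of a kinase cascade that senses axon damage. They act through intermediate MAP kinase kinases on the c-Jun N-terminal kinases JNK1, JNK2 and JNK3 (Mapk8, Mapk9 and Mapk10), which scaffold proteins such as JIP3 (Mapk8ip3) hold together, and which phosphorylate Jun. The integrated stress response runs in parallel: kinases that phosphorylate the initiation factor eIF2 lower general translation while the messenger RNA of ATF4 is translated more, and ATF4 induces, among others, Ddit3 (CHOP), Atf5 and Trib3. Both pathways are known for their part in ganglion cell death after optic nerve injury. Control of DLK, the JNKs and ATF4 is largely by phosphorylation, protein stability and translation, which messenger RNA counts do not measure.

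The libraries held 7486359 to 21126291 counts. Genes with at least 10 counts, called detected here, numbered 4258 to 4863 in the controls and 5790 to 7209 in the knockouts. The targeted gene Tgfbr1 had 1, 0 and 1538 counts across controls 1 to 3 and 46, 0 and 793 across knockouts 1 to 3. These counts span the whole gene and do not check the labels. Of 12 ganglion cell markers, 8, 8 and 5 were detected across controls 1 to 3 and 6, 9 and 9 across the knockouts, with summed levels of 610.7 to 4777 CPM (counts relative to the library total, on one scale for all libraries) in controls and 2792 to 3665 CPM in knockouts. Pou4f2, a defining ganglion cell factor, had at most 1 count in any library, and Slc17a6 had 0 in control 3. Control 3 also stood apart by endothelial genes: all 12 endothelial markers were detected there, summing to 6607 CPM, against 35.9 to 850.6 CPM in each of the 5 remaining libraries. Results are therefore also given without control 3. Other cell types varied too: amacrine markers summed to 776.2 CPM in knockout 2 and to 90.7 to 325.4 CPM elsewhere. Mueller glia markers summed to 511.6, 778.8 and 732.3 CPM across controls 1 to 3. Across knockouts 1 to 3 they summed to 130.7, 227.7 and 509.6 CPM, so every knockout was below every control. Of the 9 in the table, 2, 4 and 4 were detected across the controls and 3 in each knockout. Pericyte and smooth muscle markers summed to 0.0861 to 546.2 CPM, highest in control 2. The part of these cell types in the results was not tested.

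The 10 genes fell into a pair that was measured in every library and 8 that came and went between libraries. Atf4 and Ddit3 were detected in all 6 libraries. Mapk9 and Mapk8ip3 were detected in 4, Mapk10 in 3, Mapk8 and Map3k13 in 2, Atf5 in 1, and Map3k12 and Trib3 in 0. Such on and off detection was general in the table: of 11977 genes detected anywhere, 32.7% were detected in 1 library and 9.99% in all 6. Controls 1, 2 and 3 detected 6, 4 and 3 of the 10 genes and knockouts 1, 2 and 3 detected 2, 8 and 5. Both the lowest and the highest number were therefore in knockout libraries, although every knockout library detected more genes of the whole table (25.8% to 32.2%) than any control (19% to 21.7%).

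**Figure D1:**
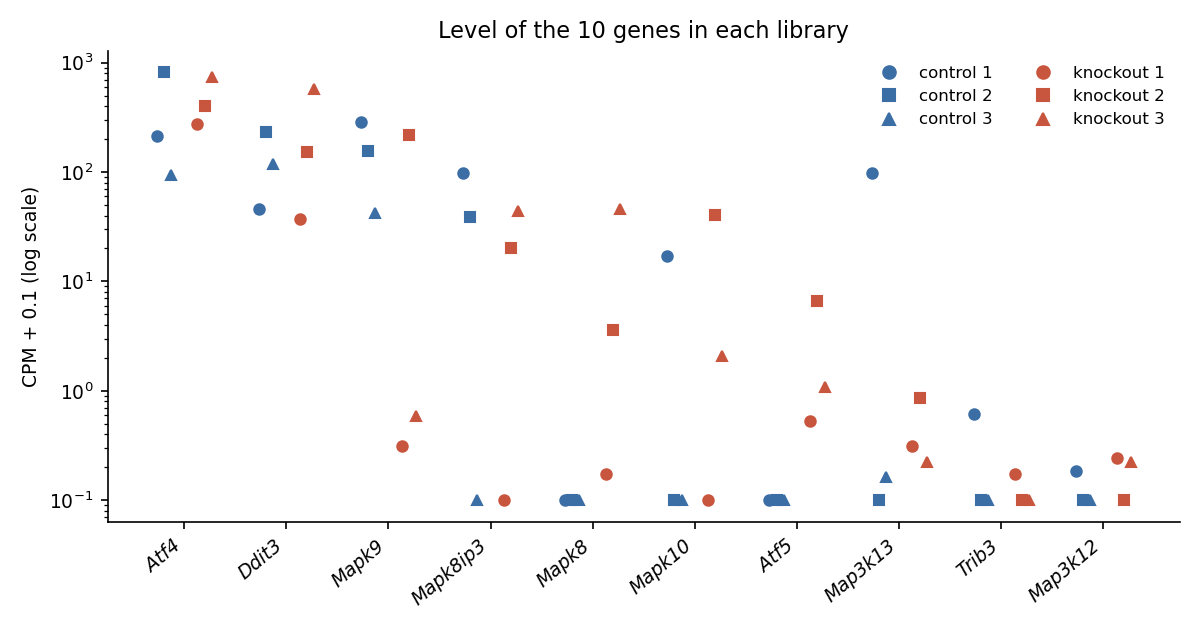
Level of each of the 10 genes in each library, as CPM + 0.1 on a log axis; each point is 1 library, blue for control and red for knockout, and shapes give the sample number within a group. Atf4 and Ddit3 lie above 36 CPM in all 6 libraries, and the other genes are near the bottom of the axis in at least 2 libraries.

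**Figure D2:**
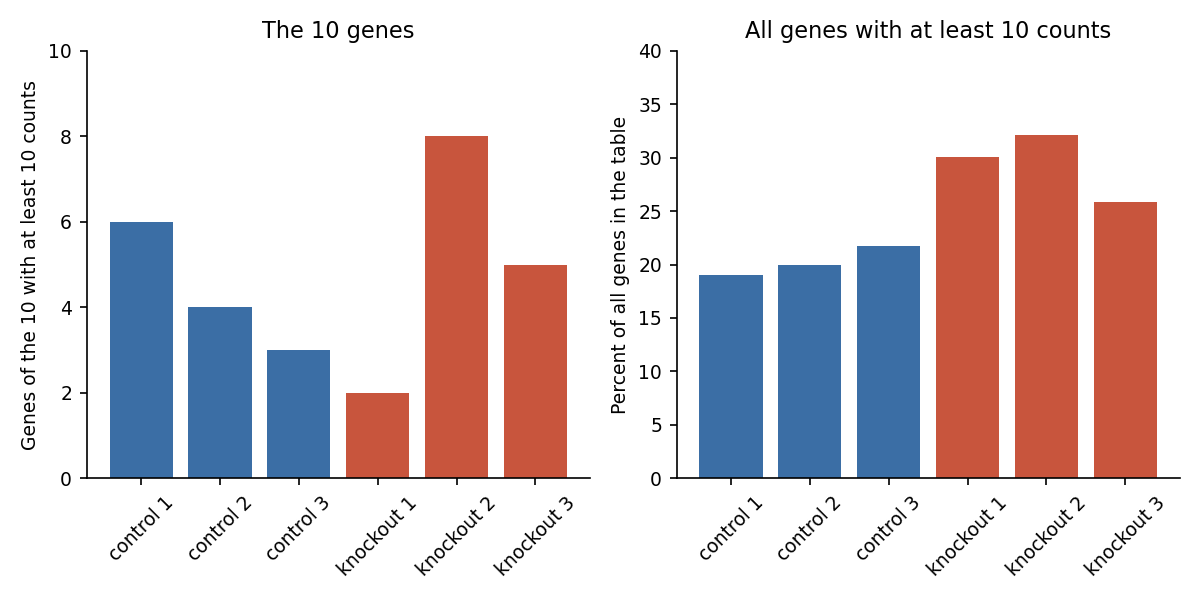
Left, the number of the 10 genes with at least 10 counts in each library; right, the percentage of all 22413 genes with at least 10 counts. Knockout 1 has 2 of the 10 genes, the lowest number, and 30.1% of all genes, the second highest share.

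Levels between genes are compared as FPKM, the deposited values scaled to gene length and library total. Averaged over the 6 libraries, Atf4 was highest at 245 ± 170 FPKM (SD, n = 6), followed by Ddit3 at 76.5 ± 79.6, Mapk9 at 23.4 ± 24.2 and Mapk8ip3 at 5.98 ± 6.56 FPKM. Mapk8, Mapk10, Atf5 and Map3k13 averaged 1.40, 1.09, 0.768 and 0.558 FPKM, and Trib3 and Map3k12 0.0478 and 0.00938. In deposited FPKM the step from Atf4 to Ddit3 held in 6 of 6 libraries, and the steps from Ddit3 to Mapk9 and from Mapk9 to Mapk8ip3 each held in 5 of 6. Below these the order was not stable: Mapk8 exceeded Mapk10 in 2 of 6 libraries and Mapk10 exceeded Atf5 in 2 of 6. These neighbours did not differ beyond their spread. The FPKM of Map3k13 rest on a gene length of 29918 bases, longer than the 8714 bases of its merged exons in the GENCODE M21 annotation, and those of Mapk8ip3 on 5603 bases against 14558, of Mapk8 on 5928 against 11444, of Ddit3 on 2542 against 1713 and of Atf4 on 1729 against 2358. The order therefore depends on the lengths used. With the annotation's lengths, an alternative chosen after seeing the data, Atf4, Ddit3, Mapk9 and Mapk8ip3 still had the highest averages, but Atf4 exceeded Ddit3 in 4 of 6 libraries, and Map3k13 and Mapk10 came before Mapk8.

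At the top of the cascade, DLK itself was close to absent from the counts. Map3k12 (GRCm38 chromosome 15, 102497646 to 102517064, minus strand) had 1, 0 and 0 counts across controls 1 to 3 and 2, 0 and 1 across knockouts 1 to 3. With group totals of 1 and 3 counts no fold is given, and a difference was not detectable at this depth. A count of 0 allows up to 3 counts, or 0.142 to 0.401 CPM depending on the library. In the annotation 1573 exon bases of Map3k12 are shared with Pcbp2 on the opposite strand, so that reads there cannot be told apart where strand was not used. Pcbp2 had 207 to 3111 counts.

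LZK came almost entirely from a single control. Map3k13 (chromosome 16, 21794346 to 21933439, plus strand) had 1149, 0 and 1 counts across controls 1 to 3 and 3, 16 and 1 across knockouts 1 to 3. Control 1 held 98.8% of its summed CPM, where the median gene had 71.4% in its top library. The groups overlapped, since the other controls had no more than the knockouts, and the gene did not pass the filter on low counts.

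The scaffold JIP3 was split within each genotype. Mapk8ip3 (chromosome 17, 24892153 to 24936977, minus strand) had 1141, 289 and 0 counts across controls 1 to 3, or 98.3, 38.6 and 0 CPM. Knockouts 1, 2 and 3 had 0, 424 and 357 counts, or 0, 20.1 and 44.1 CPM. One library of each genotype was thus at 0, and the groups overlapped. The means were 45.6 ± 49.5 CPM in controls and 21.4 ± 22.1 in knockouts (SD, n = 3 each). Its exons share 1557 bases with Eme2 on the same strand and 1309 bases with Mrps34 and 577 with Nme3 on the opposite strand. Mrps34, a mitochondrial ribosomal protein, had 293, 0 and 1 counts across the controls and 0, 101 and 1054 across the knockouts. Nme3 had 0, 789 and 1185 counts across the controls and 0, 0 and 1 across the knockouts. Control 2 thus held counts of Mapk8ip3 and Nme3 and none of Mrps34. The part of the shared bases in the counts of Mapk8ip3 was not tested.

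JNK2 was the most abundant of the 3 JNK genes in each of the 4 libraries that detected it. Mapk9 (chromosome 11, 49846751 to 49886421, plus strand) had 3346, 1158 and 688 counts across controls 1 to 3, or 288, 155 and 42.0 CPM. Knockouts 1, 2 and 3 had 3, 4621 and 4 counts, or 0.215, 219 and 0.494 CPM. All controls were well above 2 of the knockouts, but knockout 2 lay between controls 1 and 2, so the groups overlapped. The means were 162 ± 123 CPM in controls and 73.1 ± 126 in knockouts.

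JNK1 was counted only in knockout libraries. Mapk8 (chromosome 14, 33377898 to 33447158, minus strand) had 0 counts in every control and 1, 74 and 373 across knockouts 1 to 3. All knockouts were above all controls, though knockout 1 by a single count, which is under the 3 counts that a 0 allows. Over the summed knockout libraries Mapk8 came to a level at least 123-fold higher, with a floor of 3 counts over the 3 controls, and the bound was 25.3-fold without knockout 3, 181-fold without knockout 1 and 201-fold without knockout 2. This bound covers counting error only and not the spread between libraries. Mapk8 did not pass the low-count filter. DESeq2, which tested it, gave an adjusted p of 0.0206, and edgeR without the filter an adjusted p of 0.525. On simulated data most of the genes that DESeq2 called were unchanged ones. The simulation gave every gene the same spread, taken from these libraries, and changed a small share of the genes. It cannot give the share of false calls in these data, which is not known for the DESeq2 values here and below. Every knockout library lay above every control for 10.4% of the genes that passed the filter, and below for 2.30%.

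JNK3, the JNK most restricted to neurons, appeared in 1 control and 2 knockouts. Mapk10 (chromosome 5, 102907948 to 103211334, minus strand) had 196, 0 and 0 counts across controls 1 to 3 and 0, 856 and 16 across knockouts 1 to 3. In CPM these were 16.9, 0 and 0 against 0, 40.5 and 1.98, and the groups overlapped.

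Summed over the 3 JNK genes, controls 1, 2 and 3 held 305, 155 and 42.0 CPM and knockouts 1, 2 and 3 held 0.287, 263 and 48.5 CPM. Knockout 1 had 4 JNK counts in all, of a library of 13936519, in which Atf4 had 3832 counts. Mapk9 made up 96.9%, 100% and 100% of the JNK FPKM across controls 1 to 3 and 78.0%, 89.6% and 1.22% across knockouts 1 to 3, where the first value rests on the 4 counts of knockout 1. In knockout 3 Mapk8 was the most abundant. No other library had Mapk8 above Mapk9.

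**Figure D3:**
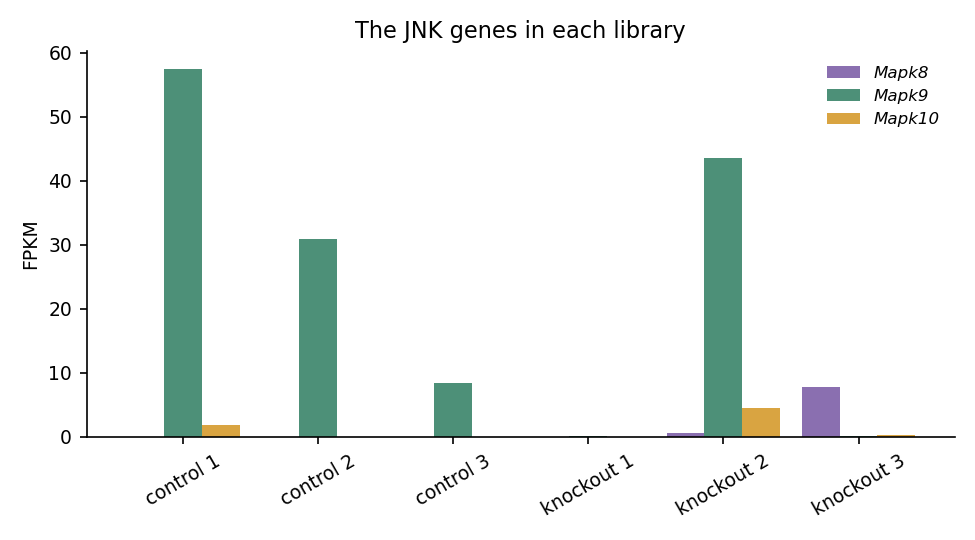
FPKM of Mapk8 (purple), Mapk9 (green) and Mapk10 (yellow) in each of the 6 libraries; each bar is 1 gene in 1 library. Mapk9 leads in the 3 controls and knockout 2, Mapk8 leads in knockout 3 at 7.77 FPKM, and knockout 1 has no visible bar.

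The transcription factors at the centre of the stress response were measured in every library. The stretch before each start is shown for Atf4 and Ddit3, the genes on which the replicated values rest (RefSeq, GRCm38.p6, from 250 to 51 bases before the start, so that no transcribed leader is included). Capitals mark an AP-1 site, the motif bound by Jun and its partners, with the letters TGANTCA.
Ddit3, chr10:127290543-127290742, plus strand: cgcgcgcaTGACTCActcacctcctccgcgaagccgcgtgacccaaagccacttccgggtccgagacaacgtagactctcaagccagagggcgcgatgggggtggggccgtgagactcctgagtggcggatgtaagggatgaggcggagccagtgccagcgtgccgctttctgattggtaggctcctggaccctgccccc
Atf4, chr15:80254934-80255133, plus strand: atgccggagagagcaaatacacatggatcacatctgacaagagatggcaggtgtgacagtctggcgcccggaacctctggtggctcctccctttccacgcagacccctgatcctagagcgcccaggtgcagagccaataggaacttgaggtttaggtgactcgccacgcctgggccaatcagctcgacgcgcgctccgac
On either strand, Ddit3 had 1 AP-1 match in this window and Atf4 had 0, and 5.57% of 32851 windows of the same length had a match. The Ddit3 window lies within the annotated span of another gene, Gm4189, on the opposite strand (127289696 to 127290788). The composite motif of C/EBP and ATF proteins (TGATGNAA) and the cyclic AMP response element (TGACGTCA) were in neither window, and in 2.72% and 0.828% of all windows. The motifs searched do not overlap each other here. All 10 genes had at least 1 window, and Mapk8, Mapk10, Atf5 and Map3k12 had more than 1. Among the other 8 genes the only match was 1 composite motif in the window of Map3k13. That window, chromosome 16, 21891719 to 21891918, lies inside the span of the gene in GENCODE M21, since the RefSeq start used differs. A match is a description of letters, not a bound site, and sites outside these windows were not searched.

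Atf4, the central transcription factor of the response, is a gene of 1 exon block (chromosome 15, 80255184 to 80257541, plus strand). It had 2461, 6135 and 1545 counts across controls 1 to 3, or 212, 819 and 94.4 CPM. Knockouts 1, 2 and 3 had 3832, 8470 and 5998 counts, or 275, 401 and 741 CPM. The lowest library was control 3, which also held the endothelial genes, and the highest was control 2, so the knockouts lay inside the range of the controls. The means were 375 ± 389 CPM in controls and 472 ± 241 in knockouts (SD, n = 3 each). By FPKM, Atf4 was above 81.7% to 97.5% of the genes with a count in the same library. Its coefficient of variation over the 6 libraries was 0.695, and of the 1196 genes detected in all 6 libraries 55.3% varied less.

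Ddit3, which encodes the pro-apoptotic factor CHOP (chromosome 10, 127290774 to 127296288, plus strand), varied more. It had 537, 1744 and 1930 counts across controls 1 to 3, or 46.3, 233 and 118 CPM. Knockouts 1, 2 and 3 had 512, 3243 and 4699 counts, or 36.7, 154 and 580 CPM. The lowest and the highest library were both knockouts, and the groups overlapped. The means were 132 ± 94.2 CPM in controls and 257 ± 286 in knockouts. Its coefficient of variation was 1.04, and 88.0% of the genes detected in all 6 libraries varied less. Its last 68 exon bases overlap the gene Mars1 on the opposite strand, which had 0 to 374 counts.

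The ratio of Ddit3 to Atf4 varied within each genotype. In FPKM it was 0.148, 0.193 and 0.850 across controls 1 to 3 and 0.0909, 0.260 and 0.533 across knockouts 1 to 3. By these values Ddit3 was below Atf4 in every library, but with the annotation's lengths the ratio was 1.72 in control 3 and 1.08 in knockout 3, so that Ddit3 was above Atf4 there, and 0.184 to 0.527 in the other 4. The genotypes overlapped in this ratio.

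**Figure D4:**
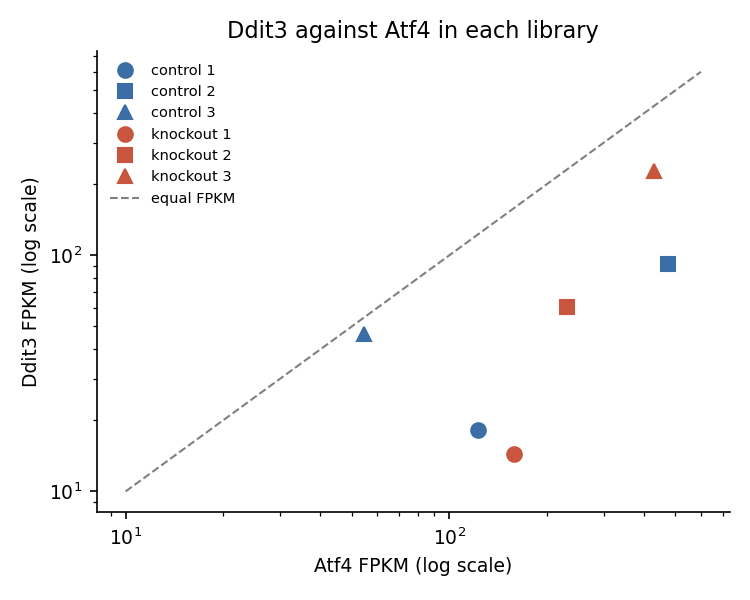
Ddit3 against Atf4 in FPKM on log axes; each point is 1 library, blue for control and red for knockout, and the dashed line marks equal levels. By the deposited FPKM all 6 points lie below the line, and control 3 and knockout 3 lie nearest to it, at ratios of 0.850 and 0.533.

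Atf5, a factor induced by ATF4 that also serves mitochondrial stress signalling, was counted only in knockouts. Atf5 (chromosome 7, 44812256 to 44816658, minus strand) had 0 counts in every control and 6, 139 and 8 across knockouts 1 to 3, or 0.431, 6.58 and 0.988 CPM. All knockouts were above all controls, as for 10.4% of the genes that passed the filter. Knockouts 1 and 3 were under the 10 counts that count as detected, and knockout 2 held 82.3% of the summed CPM. Summed over the knockouts, the level of Atf5 was at least 41.9-fold higher with the same floor, and 7.51-fold without knockout 2, 59.5-fold without knockout 1 and 48.9-fold without knockout 3. It did not pass the low-count filter, and its adjusted p was 0.101 with DESeq2 and 0.525 with edgeR without the filter. The exons of Atf5 share 82 bases with Nup62 on the opposite strand, which had 1, 0 and 1465 counts across controls 1 to 3 and 1166, 0 and 214 across knockouts 1 to 3.

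Trib3, a pseudokinase induced by ATF4 and CHOP (chromosome 2, 152337422 to 152344032, minus strand), had 6, 0 and 0 counts across controls 1 to 3 and 1, 0 and 0 across knockouts 1 to 3. No library reached 10 counts, and the ratio of knockout to control, 0.137, had a 95% counting interval of 0.00298 to 1.13. A difference was not detectable at this depth.

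Knockout and control were compared with edgeR's quasi-likelihood test over the 5727 genes that passed the low-count filter, with Benjamini-Hochberg adjustment over all of them. Of the 10 genes, 5 passed the filter: Atf4, Ddit3, Mapk9, Mapk10 and Mapk8ip3. None of these had an adjusted p under 0.05, and 0 of all tested genes (0%) did. At an unadjusted p under 0.05 edgeR had 0 of the 5, where 4.91% of all tested genes were under it. DESeq2 called 1 of the 6 members to which it gave an adjusted p, Mapk8, where it called 15.0% of the 5900 genes to which it gave an adjusted p, and limma voom called 0 of 5, where it called 1.54% of all.

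The log2 fold changes, knockout against control ± SE, were 0.50 ± 1.02 for Atf4 and 1.05 ± 2.05 for Ddit3. They were -1.16 ± 2.82 for Mapk9, -1.22 ± 3.30 for Mapk8ip3 and 1.16 ± 3.21 for Mapk10. The unadjusted p was 0.615 to 0.721 and the edgeR adjusted p 0.9998 for each of the 5. Every SE was larger than the fold change beside it. Of the 5, 3 had a positive fold change, where 54.2% of all tested genes did, and their median was 0.50 against 0.14 for all tested genes.

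The median of all tested genes moved from 0.14 with TMM scaling to -0.13 with DESeq2's size factors. Relative to it, Atf4 was at 0.35 and 0.40, Ddit3 at 0.90 and 0.96, Mapk10 at 1.02 and 1.13, Mapk9 at -1.30 and -1.26, and Mapk8ip3 at -1.36 and -1.18 under the 2 scalings, so no sign turned with the scaling.

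Single libraries set several of these values. Ddit3 went to -0.27 without knockout 3, Mapk10 to -2.73 without knockout 2 and to 10.54 without control 1, and Mapk8ip3 to 0.39 without control 1. Without control 1 every remaining control had 0 counts of Mapk10, so the 10.54 is not a measured fold. Without knockout 2 the remaining knockouts had 3 and 4 counts of Mapk9. Mapk9 kept its sign in each such fit but ranged from -8.76 without knockout 2 to -0.21 without control 1, and Atf4 from 0.04 without control 3 to 1.48 without control 2. Without control 3, the library with the endothelial genes, the values were 1.01 for Ddit3, -1.67 for Mapk9, 0.51 for Mapk10 and -1.85 for Mapk8ip3. None of the 5 had an adjusted p under 0.05 in any fit that left out a library.

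**Figure D5:**
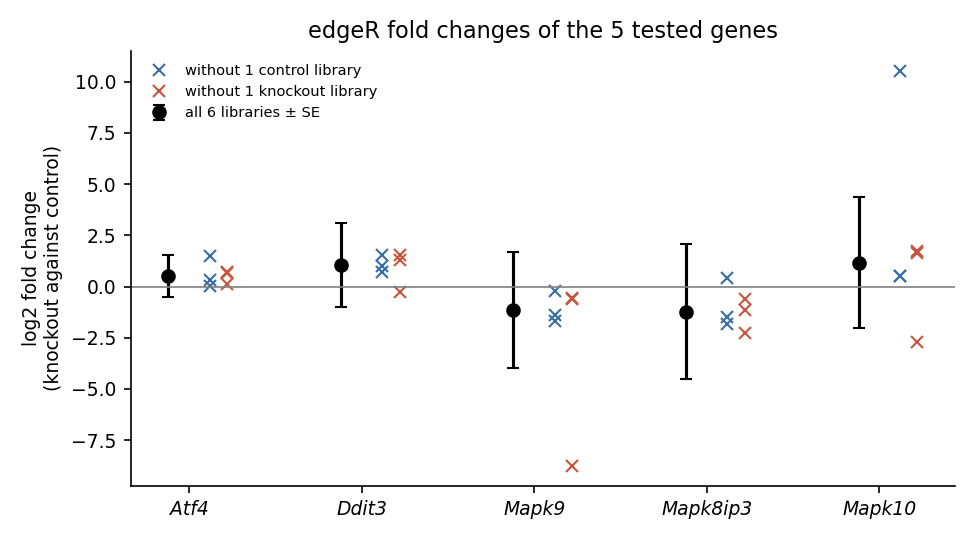
log2 fold change of knockout against control for the 5 tested genes; black points are edgeR with all 6 libraries and bars are 1 SE, and crosses are fits without 1 control (blue) or 1 knockout (red) library. Every black bar crosses 0, and crosses of Ddit3, Mapk8ip3 and Mapk10 lie on both sides of 0.

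In the wider JNK cascade, 2 of 23 listed upstream kinases, scaffolds and phosphatases were detected in all 6 libraries. Of the 23, 14 were tested, 6 with a positive fold change (54.2% of all tested genes had one) and 8 with a negative one, and their median was -0.19 against 0.14 for all tested genes, the same with Dusp4 set at its bound. No gene of it passed the adjusted threshold. At an unadjusted p under 0.05, 1 was higher in the knockout (4.49% of all tested genes were) and 0 were lower (0.419%). All knockouts exceeded all controls for 4 of the 14, where 10.4% of all tested genes did so. The gene with the smallest p was Dusp4, a phosphatase of MAP kinases, with 0 counts in every control and 161, 98 and 111 across knockouts 1 to 3. It was at least 101-fold higher by the floor of 3 counts over the group (adjusted p = 0.681 in edgeR and 0.0183 in DESeq2). This bound covers counting error only, and Dusp4 passed the low-count filter through the knockouts alone. Dusp8, a phosphatase that acts on JNK, had 1, 0 and 145 counts across controls and 389, 486 and 2786 across knockouts (edgeR adjusted p = 0.9998).

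Mycbp2, the ubiquitin ligase that limits DLK, had 1, 676 and 0 counts across controls and 3929, 3271 and 2256 across knockouts (edgeR adjusted p = 0.9998). Map4k4, a kinase upstream of DLK, had 158, 1 and 535 counts against 1903, 754 and 2605. The MAP kinase kinases that link DLK to JNK were sparse: Map2k4 had 0 in every control and 23, 53 and 0 across knockouts, and Map2k7 had 2703, 0 and 0 against 0, 932 and 1649. The 2 detected in all 6 libraries were the scaffold Mapk8ip1, with 2559, 672 and 752 counts across controls and 235, 373 and 1242 across knockouts, and the phosphatase Dusp1, with 1243 to 5542 counts. Map2k4, Map2k7, Mapk8ip1 and Dusp1 were named after their values were seen.

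Of 8 listed transcription factors downstream of JNK, 7 were tested, 4 were detected in all 6 libraries, and the median log2 fold change was 0.10 against 0.14 for all tested genes. No member passed the adjusted threshold, and 0 had an unadjusted p under 0.05, where 4.91% of all tested genes did. All knockouts exceeded all controls for 2 of the 7 (10.4% of all tested genes) and lay below them for 0 (2.30%). Jun, the defining target, had 1209, 3333 and 704 counts across controls and 2593, 2740 and 1852 across knockouts, including 2593 in knockout 1, where the JNK genes had 4 counts in all; it was named after its values were seen. Sox11, a factor of axon injury and growth, was at 557 ± 386 CPM in controls and 973 ± 57.7 in knockouts, a log2 fold change of 0.88 ± 0.70 (edgeR adjusted p = 0.9998) that was 1.58 without control 1 and 0.36 without control 3. Atf3, an injury-induced partner of Jun, had 1292, 0 and 1435 counts across controls and 1703, 3366 and 1026 across knockouts. In CPM these were 111, 0 and 87.6 against 122, 159 and 127 (edgeR adjusted p = 0.9998). Sox11 and Atf3 were the 2 genes with all knockouts above all controls. Jund was at 164 ± 78.7 CPM in controls and 98.2 ± 37.5 in knockouts. Atf7 had 0, 0 and 504 counts against 1029, 325 and 1, and its log2 fold change turned from 1.82 to -0.42 without knockout 1.

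Upstream of ATF4, the eIF2 kinase PERK (Eif2ak3) was near 0 in the controls and counted in every knockout. Eif2ak3 had 1, 0 and 0 counts across controls 1 to 3 and 466, 3205 and 959 across knockouts 1 to 3. All knockouts were above all controls, and the ratio of depth-scaled group totals was 3805, with a 95% counting interval of 683 to 150310. The interval covers counting error only and not the spread between libraries. Every knockout library detected more genes of the whole table than any control, and the part of this was not tested. Eif2ak3 passed the low-count filter through the knockouts alone. It did not pass in edgeR (adjusted p = 0.781), with an adjusted p of 0.00287 in DESeq2, 0.0343 in limma voom and 0.401 to 1 over the other alternatives. The other eIF2 kinases were at most 102 counts in any library, except Eif2ak2 (PKR) at 890 counts in control 1. Of 17 listed kinases, eIF2 and eIF2B subunits and regulators, 10 were tested, 7 positive and 3 negative, with a median of 1.03 against 0.14 for all tested genes, of which 54.2% were positive. None passed the adjusted threshold. At an unadjusted p under 0.05, 1 was higher (4.49% of all tested genes were) and 0 were lower (0.419%), and 2 had all knockouts above all controls (10.4%).

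Impact, an inhibitor of the eIF2 kinase GCN2, had 2, 0 and 1246 counts across controls and 11114, 3074 and 3401 across knockouts (log2 fold change 4.35 ± 2.15, edgeR adjusted p = 0.9998). Without control 3 its value was 12.10, with an edgeR adjusted p of 0.0116. Control 3 held 1246 of the 1248 control counts, so that fit rests on 2 and 0 control counts, which are near the floor. In it Impact passed the low-count filter through the knockouts alone, and the size of the value is not a measured fold. Eif2s2, the beta subunit of eIF2, was counted at 11852 or more in each library, at 1403 ± 771 CPM in controls and 2105 ± 266.6 in knockouts (0.75 ± 0.43). Eif2s1, the subunit that the kinases phosphorylate, had 0, 1270 and 8413 counts across controls and 4, 3286 and 0 across knockouts.

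Genes induced by ATF4 or CHOP were then counted. Of 32 listed, 31 were in the table and 25 were tested, 17 with a positive and 8 with a negative fold change, and the median was 0.74 against 0.14 for all tested genes, of which 54.2% were positive. With edgeR 0 passed the adjusted threshold. At an unadjusted p under 0.05, 1 was higher (4.49% of all tested genes) and 0 were lower (0.419%), and all knockouts exceeded all controls for 3 (10.4%). Controls 1, 2 and 3 detected 18, 18 and 15 of them and knockouts 1, 2 and 3 detected 25, 28 and 24. Every knockout library also detected more genes than any control over the whole table, and the part of that in the list's counts was not tested. The summed level did not separate the genotypes, at 3927, 3618 and 1410 CPM in controls and 3158, 3466 and 5435 CPM in knockouts.

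Among these genes, Cars, a cysteinyl-tRNA synthetase, had 8, 0 and 1 counts across controls and 2214, 657 and 1871 across knockouts. The ratio was 433, with a counting interval of 228 to 947 that leaves out the spread between libraries. Cars also passed the low-count filter through the knockouts alone. It did not pass in edgeR (adjusted p = 0.8997) and did in DESeq2 (adjusted p = 0.00857). Eprs, another tRNA synthetase, was at 101 ± 108 CPM in controls and 432 ± 119 in knockouts (2.08 ± 1.56, and 3.40 without control 1). Psat1 of serine synthesis had 0, 217 and 0 counts against 508, 1781 and 1203. Cebpg, a dimer partner of ATF4, was at 235 ± 328 CPM in controls and 42.4 ± 40.9 in knockouts (-2.63 ± 2.56). Control 1 held 7123 of the 8410 counts of that group, and without that library the log2 fold change was -0.08. The edgeR adjusted p of Eprs, Psat1 and Cebpg was 0.9998.

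For each tested gene the 2 genes of most similar course over the 6 libraries were found, by the root mean square difference of log2(CPM + 1) after centring each gene on its own mean. Nearest to Atf4 were Ap2m1, at a difference of 0.37, and Gpx4, at 0.37. Among the genes nearest to Ddit3 was Foxn3, at 0.32. Mapk9 was nearest to Kiz at 0.37 and Marchf8 at 0.67, Mapk10 to Dock3 at 0.34 and Dram2 at 0.56, and Mapk8ip3 to Zfand2a at 0.48 and Ccl27a at 0.51. Atf4 and Ddit3 were not among each other's nearest genes. Kiz had 2240, 1185 and 396 counts across controls 1 to 3 and 6, 4259 and 0 across knockouts 1 to 3, the same high and low libraries as Mapk9. These likenesses describe 6 libraries that share their depth and their detection of genes.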

How the data were processed

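Bulk RNA sequencing libraries of 3 knockout and 3 control samples were read from 2 deposited tables, which hold raw counts and FPKM for each gene. The mm10 build, DESeq2, R 3.2.0, HTSeq, HISAT2 and fastp are named, with no role, per the submitters' processing notes. Whether counting used strand, and which annotation, is not given in the sources used here. Dividing each raw count by its library total and 1 length per gene returns the deposited FPKM, with lengths that varied between libraries by at most 6.45e-07 of their value.

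Groups came from the sample titles. The counts were fitted with edgeR 4.0.16 (TMM, filterByExpr, robust quasi-likelihood F test, adjusted p threshold 0.05) in R 4.3.3. The SE is the fold change divided by the square root of F. The common biological coefficient of variation was 2.04. Alternatives were DESeq2 1.42.0, limma 3.58.1, other scalings and filters, FPKM with pseudocounts of 1 and 0.1, a replicate block and leaving out each library. The tests were checked on simulated data in which every gene had the same spread. With edgeR nearly all changed genes were recovered at a low spread and none at the common spread of these libraries. Intervals are exact binomial, and they and the floors of 3 counts cover counting error only.

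The genes and lists were chosen with earlier results of these data known. Named genes were the 10 genes, up to 4 tested genes of each related list with the smallest p, and the 2 nearest genes of each tested gene. A gene that this rule names is not reported here. Gene positions are from GENCODE M21 (GRCm38, the assembly called mm10). Python 3.11.15 was used for annotation and figures.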

Additional observations from a re-analysis of the deposited data

How the results depend on the processing

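The number of genes past the threshold was 0 with edgeR under other scalings, without the low-count filter, with limma on FPKM and with the replicate block, 885 with DESeq2 (744 higher in the knockout) and 88 with limma voom (82 higher). It was 0 to 7 when 1 library was left out: 7, 3 and 4 on leaving out control 1, 2 or 3 and 2, 0 and 0 on leaving out knockout 1, 2 or 3. Of the 10 genes, 1 (Mapk8, of the 6 given an adjusted p) passed with DESeq2 and 0 in each other alternative. The 5 tested members' fold changes were refitted 69 times: 66 kept their direction, 0 passed the threshold and 3 reversed, each on leaving out a library (Ddit3 ranged from -0.27 without knockout 3 to 1.56, Mapk10 from -2.73 without knockout 2 to 10.54, and Mapk8ip3 from -2.28 to 0.39 without control 1). The cause was not tested. Their adjusted p ran from 0.417 to 1. Of the named pathway genes Atf7 reversed, ranging from -0.42 without knockout 1 to 11.70 without control 3. The 10.54 of Mapk10, without control 1, and the 11.70 of Atf7 come from fits in which every remaining control had 0 counts. Neither is a measured fold. The log2 ratio of Ddit3 to Atf4 FPKM turned from -0.24 to 0.78 in control 3 and from -0.91 to 0.11 in knockout 3 with the annotation's gene lengths, an alternative added after seeing the data, and kept its sign in the other 4 libraries. The numbers detected per library changed by at most 1 at 5 or 20 counts or after thinning to 7486359 counts.

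Samples of the 2 groups share the numbers 1 to 3, but libraries of the same number did not deviate together: the correlations of their deviations from the group means across genes were -0.02, 0.03 and -0.01. With the replicate block, 0 genes passed, 197 had an unadjusted p under 0.05 in place of 281, and Atf4 and Ddit3 had log2 fold changes of 0.82 and 0.52. Map3k12 and Trib3 had under 10 counts in every library, and 0 in knockout 2, the library with the most counts. The part of depth in this was not tested.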

Other observations

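The sensors and chaperones of the unfolded protein response, which share PERK and CHOP with the stress response, were detected at 11, 10 and 13 of 17 across controls 1 to 3 and 12, 16 and 12 across knockouts 1 to 3, where 19% to 21.7% of all genes were detected in the controls and 25.8% to 32.2% in the knockouts. Of 14 tested, 7 had a positive and 7 a negative fold change, with a median of -0.01 against 0.14 for all tested genes. No gene passed in edgeR, 0 had an unadjusted p under 0.05 (4.91% of all tested genes did), and all knockouts lay below all controls for 2 of the 14 (2.30%). Hspa5, the main chaperone of the endoplasmic reticulum (BiP), was counted in every library, at 247 ± 230 CPM in controls and 512 ± 322 in knockouts (log2 fold change 1.09 ± 1.10). That value was 2.14 without control 3, 0.69 without control 2 and 0.61 without knockout 3. Hyou1, another chaperone there, had 285, 859 and 224 counts across controls and 20, 31 and 1 across knockouts (-5.34 ± 3.50). Sel1l, of the degradation machinery, had 5505, 892 and 6069 counts against 5, 1297 and 202. In CPM these were 474, 119 and 371 against 0.359, 61.4 and 24.9. Hyou1 and Sel1l were the 2 genes with all knockouts below all controls. Sdf2l1 had 13, 251 and 779 counts against 0, 145 and 0. The edgeR adjusted p of these 4 genes was 0.9998. The sensor Ern1 had at most 4 counts in any library, while its target Xbp1 had 368 to 8226; both were named after their values were seen.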
